A study of Homo sapiens with 39 samples.

Results

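The genes described here are 30 genes of sterol and fatty acid synthesis, found by symbol in a gene table of 60671 genes. They are 3 regulators (SREBF1, SREBF2, INSIG1), 7 enzymes of the mevalonate stage, 11 enzymes from squalene to sterol, the sterol carrier STARD4, 5 enzymes that make fatty acids and 3 fatty acid desaturases. All 30 were found in the table, and all 30 passed the filter on low values in both cell lines. Their levels were read in 39 RNA-seq libraries of A375 and WM115, which are established human melanoma cell lines grown in culture. The clones carry a deletion of 1 of 2 regulatory regions near SOX10, named R1 and R4, where SOX10 encodes a transcription factor of the melanocyte lineage.

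A375 was sampled as wild-type cells (WT, 4 libraries), R1-deleted clones 1.1 (3) and 1.2 (4), and R4-deleted clones 4.1 (4) and 4.2 (3). WM115 was sampled as WT (4), R1-deleted clones 1.1 (5) and 1.2 (3), R4-deleted clones 4.1 (3) and 4.2 (3), and a clone 1.3 (3). The name of clone 1.3 follows the R1 clones but its genotype label gives the R4 deletion, so its libraries form a separate group that entered no comparison of the regions. The labels do not say whether WT was itself grown from a single cell, or whether libraries of a group came from separate cultures. Libraries of 1 clone repeat that clone, so each test below compares clones, not deletions, and its p-value measures only the spread between these libraries.

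Cells regulate this pathway as a unit. The products of SREBF1 and SREBF2 are transcription factors held in the endoplasmic reticulum by SCAP and INSIG proteins while sterols are plentiful. When sterols run low, SCAP carries them to the Golgi, where they are cut, and the released part enters the nucleus and binds sterol regulatory elements, usually beside a site for the CCAAT-binding factor NF-Y. SREBF2 is known mainly for genes of cholesterol synthesis and SREBF1 mainly for genes of fatty acid synthesis, and INSIG1 is itself a target, which closes a feedback loop.

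Stretches of 6 promoters are shown because these genes stood among those that moved together in WM115 and because each holds the letters searched. Promoters from RefSeq (GRCh38.p14, 250 bases before to 50 after the start) matched 26 of the 30 genes. Capitals mark CCAAT, which reads ATTGG when it lies on the other strand, the E-box CACGTG, and the sterol regulatory element TCACNCCAC, each searched on both strands.
SREBF2 chr22:41832960-41833015, plus strand: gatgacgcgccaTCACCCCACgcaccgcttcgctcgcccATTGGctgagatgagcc
INSIG1 chr7:155297703-155297833, plus strand: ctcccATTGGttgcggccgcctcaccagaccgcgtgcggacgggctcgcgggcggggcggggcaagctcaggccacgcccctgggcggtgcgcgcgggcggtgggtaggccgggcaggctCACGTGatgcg
HMGCS1 chr5:43313498-43313577, minus strand: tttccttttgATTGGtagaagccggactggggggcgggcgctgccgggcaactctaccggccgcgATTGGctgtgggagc
FDPS chr1:155308681-155308825, plus strand: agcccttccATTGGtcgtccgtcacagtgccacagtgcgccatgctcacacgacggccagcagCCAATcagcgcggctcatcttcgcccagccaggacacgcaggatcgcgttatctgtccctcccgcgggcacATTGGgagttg
MSMO1 chr4:165327479-165327644, plus strand: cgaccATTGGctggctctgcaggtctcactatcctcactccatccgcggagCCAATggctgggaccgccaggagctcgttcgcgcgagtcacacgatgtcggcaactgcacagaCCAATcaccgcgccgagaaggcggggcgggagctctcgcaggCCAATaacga
MVK chr12:109573579-109573758, plus strand: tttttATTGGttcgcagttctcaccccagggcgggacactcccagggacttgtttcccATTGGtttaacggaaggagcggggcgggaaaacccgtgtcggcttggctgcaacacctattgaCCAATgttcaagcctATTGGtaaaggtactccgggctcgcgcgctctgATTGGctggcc
CCAAT stood in a promoter of 21 of the 26 genes (80.8%), against 39.7% of 27305 genes with a promoter of the same length. A gene counted if any of its listed promoters, 1 to 3 for these genes, held the letters. CACGTG stood in 3 of 26 (INSIG1, LSS and SC5D, 11.5%), against 8.77% of all genes. TCACNCCAC stood in SREBF2 alone (3.85% of 26), against 1.39%. The SREBF2 stretch carries that element and an inverted CCAAT within 56 bases, and the MVK stretch carries 5 copies of CCAAT within 180 bases. A match is a run of letters in this window and shows no binding. The search took these exact letters only, so a promoter without a match is not shown to lack an element.

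Levels are in TPM, a share of each library corrected for transcript length. The tables hold no read counts, so sequencing depth is unknown. Markers of the lineage were present, though not all of them in A375. SOX10 was at 272 TPM or more in 20 of 21 WM115 libraries. The summed melanocytic markers (8 genes) ran from 453 to 2105 TPM in A375. There 4 of the 8 were at 1 TPM or more in every library, and 3 were under 1 TPM in every library. TYR was listed at 0 throughout A375 WT. Summed leukocyte markers (4 genes) were at most 1.19 TPM in any library, endothelial markers (3) at most 16.3, fibroblast markers (4) at most 27.9 and keratinocyte markers (5) at most 30.6. Library 3 of WM115 clone 1.2 stood apart, with SOX10 at 9.56 TPM against 279 and 272 in that clone's other libraries. Its melanocytic markers summed to 40.7 TPM.

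Among the 30 genes, 2 other WM115 libraries stood apart. The 18 mevalonate and sterol enzymes summed to 2131, 1949, 977 and 1716 TPM in WT libraries 1 to 4, and to 1261, 944 and 2338 TPM in clone 1.3. The other 14 WM115 libraries lay between 747 and 1220 TPM, so WT library 3 sat among the clones and library 3 of clone 1.3 sat above every WT library. The 8 fatty acid enzymes gave the same picture, with 2359, 2032, 1120 and 1766 TPM in WT and 2678 TPM in library 3 of clone 1.3. Ribosomal protein transcripts took 11.1 to 12.8% of the WT libraries and 10.6% of library 3 of clone 1.3, against 15.1 to 17.4% of all other WM115 libraries. Mitochondrial transcripts took 13.7 to 15.6% of WT, 19.4% of library 3 of clone 1.3 and 4.71 to 14.4% of the others. With the mitochondrial set (above 7.5% or not) as a term, counts of the 30 called against WT were 6, 11, 13 and 20 in clones 1.1, 1.2, 4.1 and 4.2. They were 10, 12, 17 and 23 without the term. Every WT and clone 1.2 library was in the high set, so the term could not take up a difference in share between those groups. The counts with the term have no share of all genes beside them. The part of the ribosomal share in the results was not tested.

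**Figure D1:**
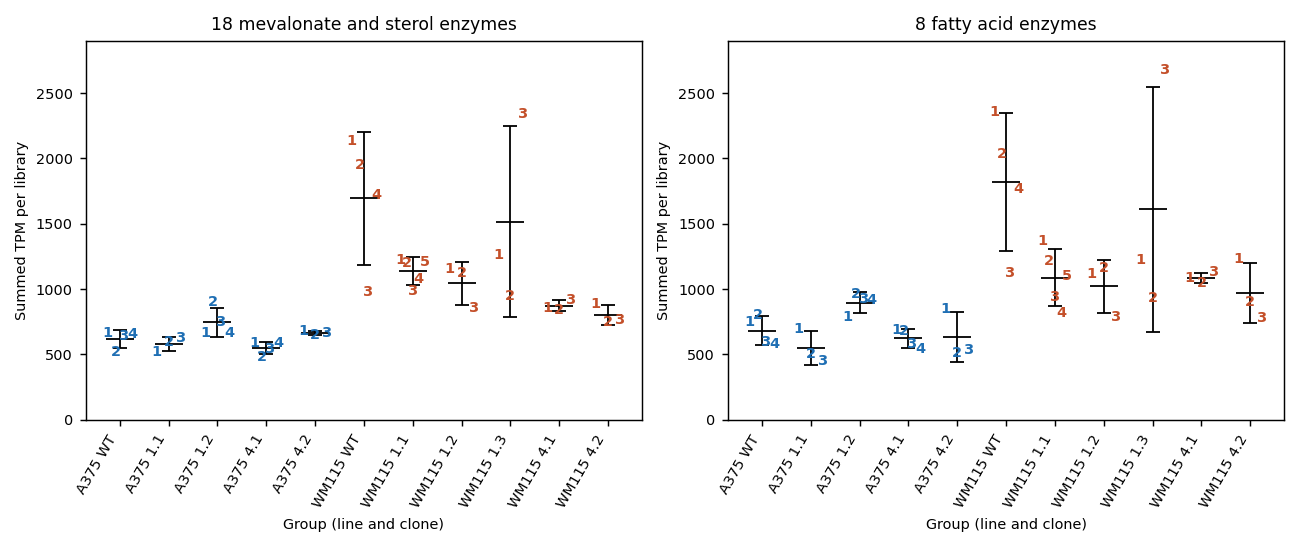
Summed TPM of the 18 mevalonate and sterol enzymes (left) and of the 8 fatty acid enzymes (right) in each library, by line and clone. Each digit is a library, black bars are the group mean ± SD. WM115 WT library 3 lies with the clones and library 3 of clone 1.3 lies above WT.

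Across 16997 genes, library 3 of clone 1.3 correlated at 0.974 to 0.976 (Pearson's r of log2(TPM + 1)) with WT libraries 1, 2 and 4, and at 0.963 and 0.939 with libraries 1 and 2 of its own clone. Its FOXF1 level was 5.80 TPM, where the 4 WT libraries were listed at 0 and libraries 1 and 2 of the clone had 6.31 and 10.8 TPM. GATA4 was at 5.75 TPM in it, at 4.59 and 4.84 TPM in its clone's other libraries and at 0.022 TPM or less in WT. Both genes were chosen after their values were seen. These levels set the library apart from WT but not from the other clones, since FOXF1 was at 3.43 to 12.5 TPM in clones 1.2, 4.1 and 4.2 (and at 0.156 TPM or less in clone 1.1), and GATA4 at 3.11 to 6.18 TPM in clone 1.2. On the same measure WT library 3 correlated at 0.969, 0.978 and 0.966 with WT libraries 1, 2 and 4. It correlated at 0.971 with library 1 of clone 1.3, 0.970 with library 3 of clone 4.2 and 0.969 with library 4 of clone 1.1. With the other clone libraries it stood at 0.891 to 0.966. Counts of the 30 against WM115 WT are given with and without WT library 3.

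WT cells of both lines differed widely in these genes. With limma on log2(TPM + 1), 24 of the 30 were higher in WM115 WT than in A375 WT and 1 was lower, at an adjusted p under 0.05. Among all genes tested, 25.8% were higher and 23% lower. The median difference of the 30 was 1.42 on the log2 scale, beside 0.02 over all genes. For 21 genes every WM115 WT library lay above every A375 WT library and for 1 gene below, against 22.7% and 18.9% of all genes. Without WM115 WT library 3, 24 were higher and none lower, against 25.4% and 22.4% of all genes. Of the 30, 25 then lay wholly above and 1 below, against 27% and 22% of all genes. Other measures differed between the same libraries. Of 8 melanocytic markers, 6 were higher in WM115 WT and none lower. Mitochondrial transcripts took 1.21 to 4.92% of A375 WT beside 13.7 to 15.6% of WM115 WT, and ribosomal protein transcripts 17.4 to 25.5% beside 11.1 to 12.8%. Their part in the result was not tested.

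FADS2, the desaturase that starts the synthesis of long polyunsaturated fatty acids, had the widest gap. It stood at 24.1, 19.6, 22.3 and 24.3 TPM in A375 WT and at 328, 361, 242 and 254 TPM in WM115 WT, with no overlap (log2 difference 3.64, SE 0.183, adjusted p = 2.48e-17). HMGCS1, which makes HMG-CoA at the entry to the mevalonate stage, stood at 16.9, 12.0, 16.2 and 16.8 TPM in A375 WT and at 270, 208, 37.5 and 176 TPM in WM115 WT (3.10, SE 0.469, adjusted p = 1.73e-06). Its lowest WM115 value was library 3, still above all 4 of A375. INSIG1, which holds SCAP in the endoplasmic reticulum, averaged 29.1 and 225 TPM (2.84, SE 0.393, adjusted p = 3.67e-07). STARD4, which carries cholesterol between membranes, averaged 12.2 and 91.96 TPM (2.81, SE 0.408, adjusted p = 8.52e-07). In this comparison 2 of 3 regulators, 6 of 7 mevalonate enzymes, 9 of 11 sterol enzymes, STARD4, 3 of 5 fatty acid enzymes and all 3 desaturases were higher in WM115.

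Further sterol genes followed. TM7SF2, a sterol reductase, was 2.47 higher on the log2 scale, the squalene epoxidase SQLE 2.21 higher, and DHCR7, which catalyses the last step to cholesterol, 1.97 higher (adjusted p = 9.02e-06, 6.99e-07 and 1.99e-06). SREBF2 averaged 46.7 TPM in A375 and 156 TPM in WM115 (1.79, SE 0.332, adjusted p = 3.59e-05). SREBF1 averaged 112 and 161 TPM and did not pass (0.54, SE 0.251, adjusted p = 0.0743). ELOVL6, which elongates saturated and monounsaturated fatty acids, was the gene that was lower in WM115, at 10.4 against 17.4 TPM (-0.70, SE 0.231, adjusted p = 0.0123). PMVK, NSDHL, SC5D and ACACA did not pass either. FASN, the fatty acid synthase, had the highest level of the 30 in both lines, 238 TPM in A375 WT and 570 TPM in WM115 WT. The lowest were TM7SF2 in A375 (9.71 TPM) and ELOVL6 in WM115.

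**Figure D2:**
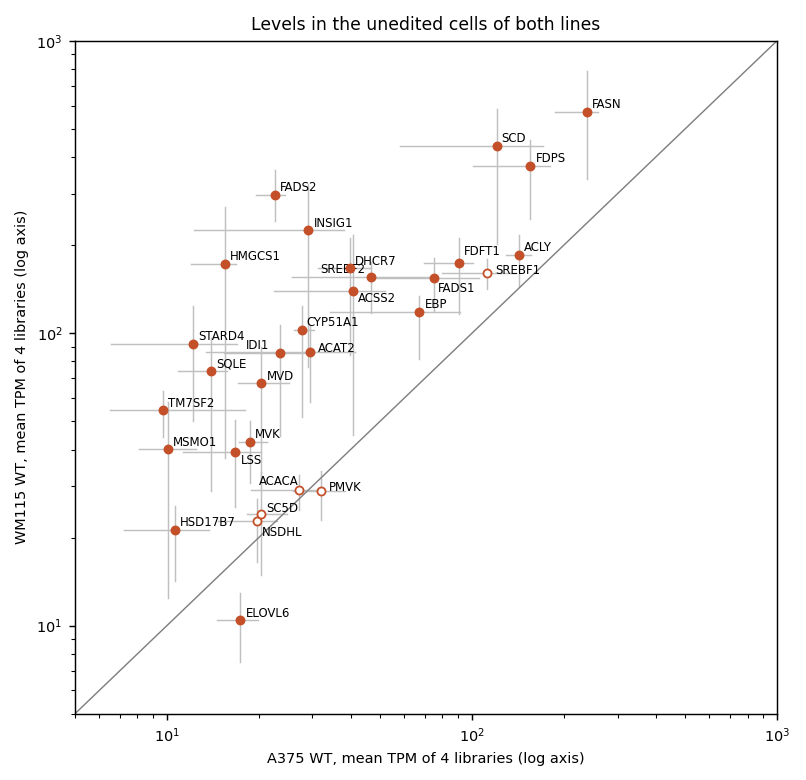
Mean TPM of each of the 30 genes in A375 WT (x axis) and WM115 WT (y axis), 4 libraries each, both axes logarithmic. Grey lines run from the lowest to the highest library, filled points have a limma adjusted p under 0.05, and ELOVL6 is the filled point below the line of equal level.

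In WM115 the 2 R4-deleted clones were lower than WT across the sterol pathway. In clone 4.2, 23 of 30 genes were lower and none higher, where 13.6% of all genes were lower and 6.71% higher. In clone 4.1, 16 were lower and 1 higher, against 15.6% and 8.59% of all genes. The median difference of the 30 was -0.83 in clone 4.2 and -0.91 in clone 4.1, with -0.10 over all genes in each. Without WT library 3 the counts called were 24 and 22, all lower. Of all genes 15.3% and 16% were then lower, and 7.78% and 8.74% higher. Without WT library 1, 2 or 4 the counts were 10, 11 and 11 for clone 4.2, and 12, 13 and 12 for clone 4.1. These last counts have no share of all genes beside them. Both clones were compared with the same WT libraries.

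In the mevalonate stage 6 of 7 enzymes fell in each of these clones, all but PMVK. HMGCS1 stood at 22.9, 19.8 and 32.5 TPM in clone 4.1 and at 30.1, 12.9 and 16.9 TPM in clone 4.2. Every one of these 6 libraries lay below the lowest WT value of 37.5 TPM. The log2 difference was -2.46 in clone 4.1 (SE 0.629, adjusted p = 0.0094) and -2.83 in clone 4.2 (SE 0.629, adjusted p = 0.00471). MVD, which makes isopentenyl diphosphate, stood at 89.7, 84.2, 31.8 and 63.7 TPM in WT, at 20.9, 19.9 and 24.5 TPM in clone 4.1 and at 19.2, 15.2 and 17.2 TPM in clone 4.2. Its groups did not overlap either, and the differences were -1.49 and -1.81 (SE 0.332 each, adjusted p = 0.00371 and 0.00129). ACAT2, which joins acetyl-CoA units, differed by -1.27 and -0.82. The tested genes of the chromosomes that hold MVD (16) and ACAT2 (6) had median differences of -0.46 and -0.31 in clone 4.1 and of -0.28 and -0.25 in clone 4.2. MVK, mevalonate kinase, differed by -0.99 and -1.07, the isomerase IDI1 by -0.95 and -0.97, and the farnesyl diphosphate synthase FDPS by -1.03 and -0.89.

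Beyond squalene, 10 of 11 sterol enzymes fell in clone 4.2 and 6 of 11 in clone 4.1. LSS, which closes the sterol rings, stood at 45.5, 50.6, 25.5 and 35.7 TPM in WT and at 12.7, 14.003 and 13.2 TPM in clone 4.2 (-1.45, SE 0.264, adjusted p = 0.00125). In clone 4.1 it stood at 18.7, 16.7 and 21.99 TPM (-0.96, SE 0.264, adjusted p = 0.0135). Both clones lay wholly below WT. MSMO1, which removes methyl groups from sterols, differed by -1.29 in clone 4.1 and -1.35 in clone 4.2, and the lanosterol demethylase CYP51A1 by -1.18 and -1.17. HSD17B7, a ketoreductase which like FDPS has near-identical copies elsewhere in the genome that may share its reads, differed by -1.16 and -0.68. SQLE and DHCR7 passed in clone 4.2 and not in clone 4.1 (-1.78, adjusted p = 0.00657, and -1.16, adjusted p = 0.0279). A direct test of clone 4.1 against clone 4.2 called none of the 30 by limma, where 3.99% of all genes were higher and 2.76% lower. Of these genes 3 had an unadjusted p under 0.05 (TM7SF2, HSD17B7 and FADS1), as did 3620 of all genes.

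TM7SF2 went against its neighbours in the pathway. It stood at 61.8, 63.4, 48.3 and 44.1 TPM in WM115 WT and at 95.6, 103 and 123 TPM in clone 4.1, with no overlap (0.97, SE 0.308, adjusted p = 0.0281). It was at 56.6, 42.9 and 67.6 TPM in clone 4.2, overlapping WT, and did not pass there (0.03, SE 0.308, adjusted p = 0.965). Without WT library 3, TM7SF2 in clone 4.1 had a difference of 0.92 with an adjusted p of 0.0529. TM7SF2 lies on chromosome 11, whose tested genes had a median log2 difference of 0.29 in clone 4.1.

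Of the regulators, INSIG1 fell in both clones and SREBF1 in neither. INSIG1 stood at 323, 252, 76.4 and 247 TPM in WT, at 73.2, 66.1 and 101.4 TPM in clone 4.1 and at 91.7, 87.8 and 86.2 TPM in clone 4.2. WT library 3 lay inside the range of clone 4.1 and below all of clone 4.2. The differences were -1.32 (SE 0.399, adjusted p = 0.0228) and -1.15 (SE 0.399, adjusted p = 0.0479). SREBF2 fell in clone 4.2 (-0.83, SE 0.253, adjusted p = 0.0261), while SREBF1 was at 144 to 150 TPM in clone 4.1 and 151 to 185 TPM in clone 4.2, beside 142 to 180 TPM in WT.

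Of the fatty acid genes, 2 of 5 synthesis enzymes fell in clone 4.1 and 4 of 5 in clone 4.2, and 1 of 3 desaturases, SCD, fell in each. ACSS2, which makes acetyl-CoA from acetate, stood at 217, 156, 44.9 and 139 TPM in WT, at 39.3, 34.1 and 36.4 TPM in clone 4.1 and at 41.6, 26.2 and 34.4 TPM in clone 4.2. All 6 clone libraries lay below WT (-1.70, SE 0.471, adjusted p = 0.0147, and -1.82, SE 0.471, adjusted p = 0.0115). SCD, which makes oleate from stearate, stood at 585, 445, 201 and 513 TPM in WT, at 166, 141 and 181 TPM in clone 4.1 and at 187, 175 and 115 TPM in clone 4.2. It too lay below WT in every library (-1.32 and -1.37, SE 0.405 each, adjusted p = 0.0245 and 0.023). ACLY, which makes acetyl-CoA from citrate, differed by -0.83 and -0.82, and FASN and ACACA fell in clone 4.2 (-1.14 and -0.79). FADS1 and FADS2 passed in neither clone. FADS2 stood at 272 to 300 TPM in clone 4.1, inside the WT range.

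All libraries of clone 4.1 lay below WT for 15 genes and above for 1, and all of clone 4.2 lay below for 17 and above for 0. Of all genes, 23.1% and 13.8% did so in clone 4.1, and 20.7% and 11.5% in clone 4.2. With WT library 3 left out, 25 lay below and 1 above in clone 4.1, and 26 and 0 in clone 4.2, against 30.5% and 18.2%, and 28.5% and 17.4%, of all genes. Melanocytic markers moved in the same clones: 5 of 8 were lower in clone 4.1 and 4 of 8 in clone 4.2. MITF was at 149, 139, 60.5 and 164 TPM in WT, 9.25 to 11.2 TPM in clone 4.1 and 15.2 to 18.3 TPM in clone 4.2. The markers summed to 1452 to 3264 TPM in WT, 1006 to 1356 TPM in clone 4.1 and 1439 to 1763 TPM in clone 4.2. TYR was listed at 0 in every library of clone 4.1. Markers of other cell types moved too, at the low levels given above. The keratinocyte marker KRT14 was higher in clones 4.1 and 4.2 (1.504 and 1.34), as was the endothelial marker PECAM1 (1.21 and 1.57). Of 4 fibroblast markers, DCN (1.74) and COL3A1 (0.90) were higher in clone 4.1 and LUM (-1.71) was lower in clone 4.2. Of 8 melanocytic markers, 5 were lower in each clone without WT library 3. The part of these markers in the result was not tested.

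**Figure D3:**
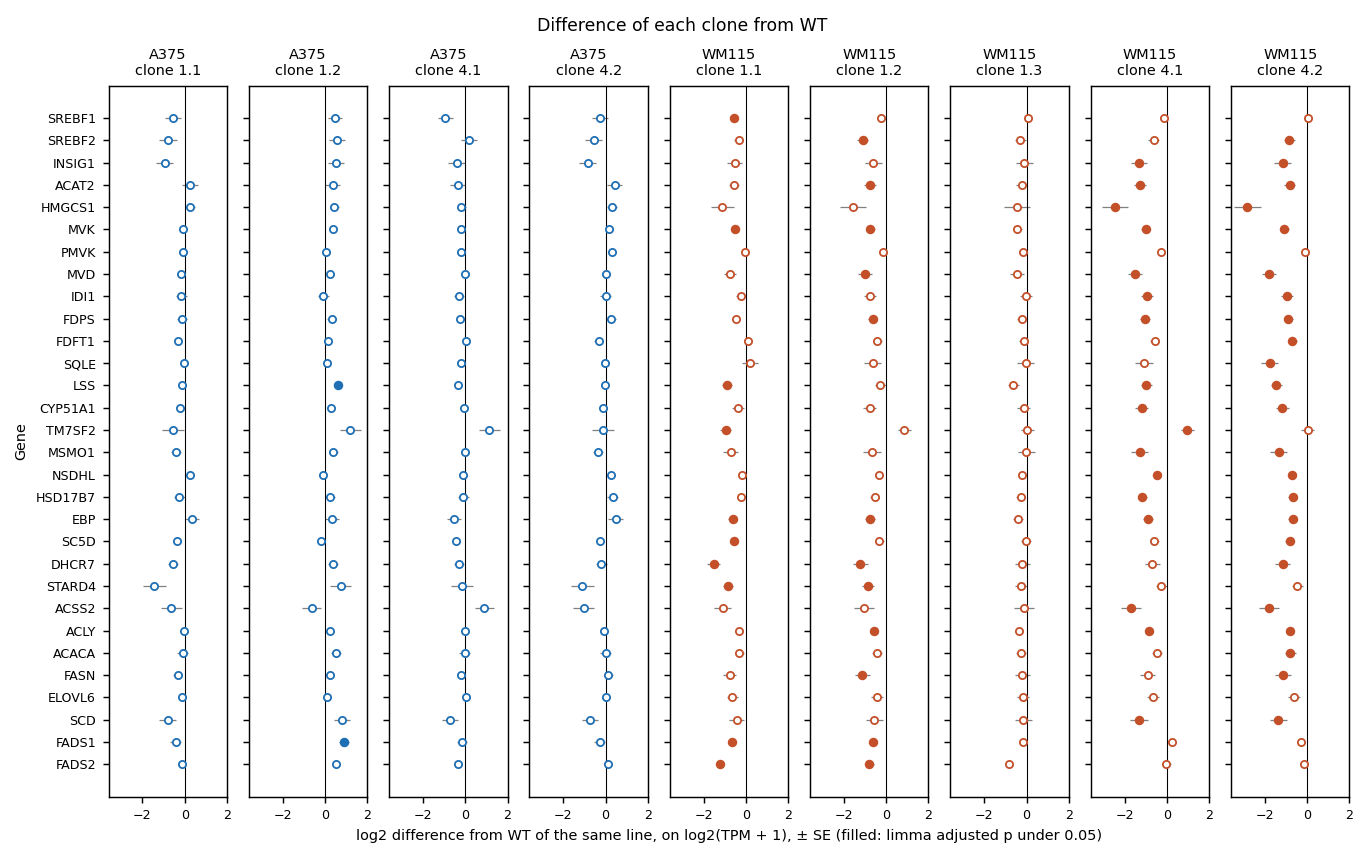
Difference of each clone from WT of its line, on log2(TPM + 1), ± SE, for the 30 genes. Filled points have a limma adjusted p under 0.05. Clones 4.1 and 4.2 of WM115 have 17 and 23 filled points, and A375 clones 1.1, 4.1 and 4.2 and WM115 clone 1.3 have none.

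The R1-deleted clones of WM115 were lower than WT in 10 and 12 of the 30 genes. Clone 1.1 had 10 lower and none higher, against 15.7% and 6.3% of all genes. Clone 1.2 had 12 lower and none higher, against 10.8% and 11.8% of all genes. The median differences of the 30 were -0.55 and -0.64, beside -0.12 and -0.02 over all genes. Without WT library 3 the counts were 19 and 21, all lower. Of all genes 16.1% and 11% were then lower, and 6.57% and 10.8% higher. Without WT library 1, 2 or 4 the counts were 5, 5 and 6 for clone 1.1 and 4, 4 and 7 for clone 1.2. These last counts have no share of all genes beside them. Without library 3 of clone 1.2, the library with the low SOX10, none of the 30 passed for that clone.

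Among genes that passed, DHCR7 had the widest gap in both R1 clones. It stood at 212, 206, 84.0 and 164 TPM in WT and at 60.8, 60.4, 44.4, 44.7 and 60.02 TPM in clone 1.1, with no overlap (-1.53, SE 0.314, adjusted p = 0.00225). In clone 1.2 it stood at 88.2, 71.5 and 45.3 TPM, and library 1 lay above WT library 3 (-1.24, SE 0.358, adjusted p = 0.0203). STARD4 fell in both (-0.85 and -0.87), as did the isomerase EBP (-0.63 and -0.75) and MVK (-0.53 and -0.76). FADS2 fell to 147, 159, 118, 92.5 and 116 TPM in clone 1.1 (-1.23, SE 0.185, adjusted p = 0.000171) and to 156, 209 and 145 TPM in clone 1.2 (-0.80, SE 0.21, adjusted p = 0.0134). All 8 of these libraries lay below the lowest WT value of 242 TPM. FADS1, which acts after FADS2 and overlaps it on the opposite strand, also fell (-0.65 and -0.64). Whether the counting kept strands apart is not stated, so reads of the overlap cannot be assigned between them.

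Several genes passed in 1 of the R1 clones. SREBF1 stood at 105, 123, 104, 99.4 and 118 TPM in clone 1.1, all below WT at 152, 171, 180 and 142 TPM (-0.55, SE 0.0967, adjusted p = 0.000683). LSS (-0.90), TM7SF2 (-0.96) and the desaturase of the sterol ring SC5D (-0.56) fell in clone 1.1. Of its 10 lower genes, 5 (DHCR7, TM7SF2, SC5D, FADS1 and FADS2) lie on chromosome 11, whose tested genes had a median log2 difference of -0.27 in that clone. SREBF2 stood at 86.3, 91.7 and 44.1 TPM in clone 1.2, all below WT at 172, 175, 117 and 161 TPM (-1.12, SE 0.253, adjusted p = 0.00609). Its chromosome, 22, had a median log2 difference of -0.45 in clone 1.2, and chromosome 16, which holds MVD, one of -0.23. FASN, MVD, ACAT2, FDPS and ACLY also fell in clone 1.2, by 0.57 to 1.13 on the log2 scale. HMGCS1 did not pass in either clone, at 34.8 to 92.4 TPM in clone 1.1 and 23.3 to 75.8 TPM in clone 1.2, where its difference of -1.58 was wider than that of DHCR7.

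The direct test of clone 1.1 against clone 1.2 called 4 of the 30, 2 higher and 2 lower in clone 1.1, where 12.4% of all genes were higher and 23% lower. TM7SF2 stood at 45.2, 21.95, 26.6, 19.96 and 28.3 TPM in clone 1.1 and at 72.7, 88.6 and 145 TPM in clone 1.2 (-1.81, SE 0.295, adjusted p = 0.000176). SREBF1 was lower in clone 1.1 (-0.32, adjusted p = 0.0231), while SREBF2 (0.78, adjusted p = 0.018) and the squalene synthase FDFT1 (0.53, adjusted p = 0.0475) were higher. The tested genes of chromosomes 22 (SREBF2) and 8 (FDFT1) had median differences of 0.35 and 0.24 in this test. Those of chromosomes 11 (TM7SF2) and 17 (SREBF1) had medians of -0.17 and -0.15. TM7SF2 was the member called when library 3 of clone 1.2 was left out. Counts of genes wholly below WT were 4 in clone 1.1 and 7 in clone 1.2, and wholly above 0 and 1, against 16.5% and 13.2% of all genes below and 7.05% and 15.2% above. With WT library 3 left out they were 24 and 25 below and 0 and 1 above, against 24.3% and 20.2%, and 11% and 19.1%, of all genes. Melanocytic markers were lower for 1 of 8 in clone 1.1 and 5 of 8 in clone 1.2, summing to 1530 to 2218 TPM and 40.7 to 1180 TPM. These counts were 2 and 4 without WT library 3. No melanocytic marker was listed at 0 throughout either clone. DCN (0.99) and COL3A1 (0.997) were higher and LUM (-2.34) lower in clone 1.1, and PECAM1 (1.64) was higher and LUM (-2.02) lower in clone 1.2. The part of these markers in the result was not tested.

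None of the 30 passed in WM115 clone 1.3 by limma, where 0.406% of all genes were lower and 0.653% higher. At an unadjusted p under 0.05 there were 3 (FADS2 at -0.83, LSS at -0.62 and MVK at -0.43), and 2212 over all genes. Without WT library 3 none passed either, with 8 of the 30 and 2104 of all genes at an unadjusted p under 0.05. HMGCS1 in this clone stood at 75.5, 44.6 and 304 TPM, so its library 3 lay above every WT library and the others below 3 of the 4. Without library 3 of the clone, LSS, EBP and FADS2 were lower than WT, and these calls have no share of all genes beside them.

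**Figure D4:**
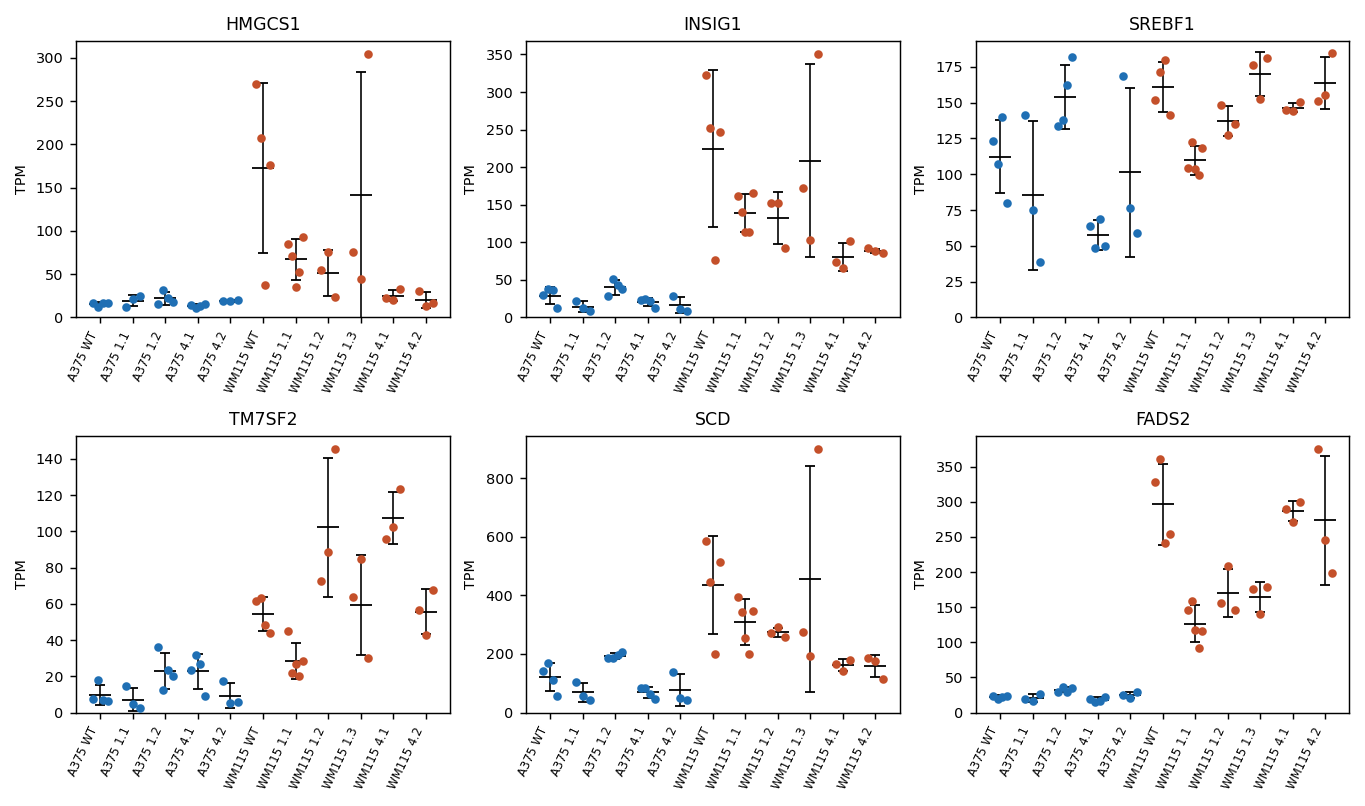
TPM of HMGCS1, INSIG1, SREBF1, TM7SF2, SCD and FADS2 in every library, by line and clone, with the group mean ± SD in black. The lowest HMGCS1, INSIG1 and SCD points of WM115 WT are library 3, and the highest points of WM115 clone 1.3 are its library 3 at 304, 351 and 900 TPM.

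A375 clones differed from WT in few of these genes. In clones 1.1, 4.1 and 4.2 none passed by limma. At an unadjusted p under 0.05 there were 4, 3 and 0 of the 30, and 1679, 1758 and 1297 of all genes. Of all genes, 0.3%, 0.515% and 0.138% were called higher and 0.737%, 0.797% and 0.419% lower. In clone 1.2, 2 of 30 were higher and none lower, against 5.44% and 3.09% of all genes. LSS stood at 18.5, 20.3, 11.3 and 17.04 TPM in WT and at 26.6, 21.7, 29.4 and 26.8 TPM in clone 1.2, with no overlap (0.63, SE 0.173, adjusted p = 0.0297). FADS1 stood at 78.6, 106, 67.5 and 48.0 TPM in WT and at 135, 122, 136 and 153 TPM in clone 1.2, again with no overlap (0.91, SE 0.236, adjusted p = 0.0226). Neither passed when any of libraries 1, 3 and 4 of the clone or libraries 3 and 4 of WT was left out. All libraries of clone 1.2 lay above WT for 7 genes and below for 0, against 8.5% and 5.33% of all genes. In the same comparison the markers SOX10 (-0.62) and S100A1 (-2.07) were lower and LUM (1.48) was higher. MITF was lower in clones 1.1 (-1.31) and 4.2 (-0.96). The part of these markers was not tested.

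Same-numbered libraries of A375 WT and clone 4.1 deviated together (r of 0.326 to 0.776 in 4 pairs). With the replicate number as a block, 8 of the 30 passed in clone 4.1, 2 higher and 6 lower, where 7.94% of all genes were higher and 6.37% lower. SREBF1 stood at 64.0, 48.2, 68.9 and 49.6 TPM in clone 4.1 and at 123, 107, 140 and 79.6 TPM in WT, below WT in 4 of 4 pairs (-0.94, SE 0.0878, adjusted p = 0.00104). ACSS2 stood at 79.1, 99.7, 76.96 and 46.8 TPM against 44.4, 51.9, 43.95 and 22.4 TPM in WT, above it in every pair (0.89, SE 0.0752, adjusted p = 0.000577). TM7SF2 was higher too (1.14, adjusted p = 0.0124), and SCD (-0.72), EBP (-0.52), SC5D (-0.42), ACAT2 (-0.37) and DHCR7 (-0.28) were lower. Unblocked, the smallest adjusted p among these 8 was 0.164, for SC5D.

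Clones 1.1 and 1.2 of A375, which carry the same labelled deletion, differed from each other in more of these genes than either did from WT. In clone 1.1, 11 of 30 were lower than in clone 1.2 and none higher, against 9.05% and 4.15% of all genes. STARD4 stood at 11.3, 2.36 and 1.38 TPM in clone 1.1 and at 17.4, 23.98, 21.3 and 17.8 TPM in clone 1.2 (-2.18, SE 0.542, adjusted p = 0.0141). SCD stood at 106, 55.4 and 44.5 TPM and at 186, 188, 198 and 208 TPM (-1.59, SE 0.398, adjusted p = 0.0147). Both were wholly lower in clone 1.1, with its library 1 the highest of that clone. TM7SF2 (-1.74), INSIG1 (-1.48), SREBF2 (-1.35), FADS1 (-1.34), DHCR7 (-0.92), MSMO1 (-0.81), LSS (-0.74), FADS2 (-0.63) and CYP51A1 (-0.49) were also lower. The markers MITF (-0.90), PMEL (-0.81), DCN (-0.92) and LUM (-1.78) were lower in clone 1.1 as well, and their part was not tested. The count was 2 (CYP51A1 and FADS1) without library 2 of clone 1.1, and 5 without its library 3. It was 7 without library 2, 3 or 4 of clone 1.2. Clone 4.1 against clone 4.2 gave 1 gene, ACSS2, higher in clone 4.1 at 46.8 to 99.7 TPM against 44.1, 12.3 and 11.5 TPM (1.92, SE 0.493, adjusted p = 0.0388), where 2.11% of all genes were higher and 1.84% lower. ACSS2 did not pass there without library 1, 2 or 3 of clone 4.1, or without library 2 or 3 of clone 4.2.

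Libraries of 1 A375 clone could differ more than clones did. SREBF2 stood at 49.9, 17.7 and 17.8 TPM in clone 1.1 and at 57.8, 18.4 and 22.9 TPM in clone 4.2, so library 1 of each lay with WT (25.7 to 72.2 TPM) and libraries 2 and 3 below it. STARD4 did the same, at 13.9, 2.44 and 3.01 TPM in clone 4.2 beside 6.58 to 16.99 TPM in WT, and SCD at 139, 49.05 and 43.4 TPM beside 58.2 to 171 TPM. HMGCS1 did not follow: it stood at 12.2, 21.6 and 24.7 TPM in clone 1.1 and at 18.4, 18.5 and 20.5 TPM in clone 4.2. In libraries 2 and 3 of both clones SREBF2, STARD4 and SCD were thus low while HMGCS1 was not. In INSIG1 the same libraries stood at 13.1 and 8.16 TPM in clone 1.1 and at 11.8 and 8.63 TPM in clone 4.2, beside 12.3 to 37.96 TPM in WT.

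**Figure D5:**
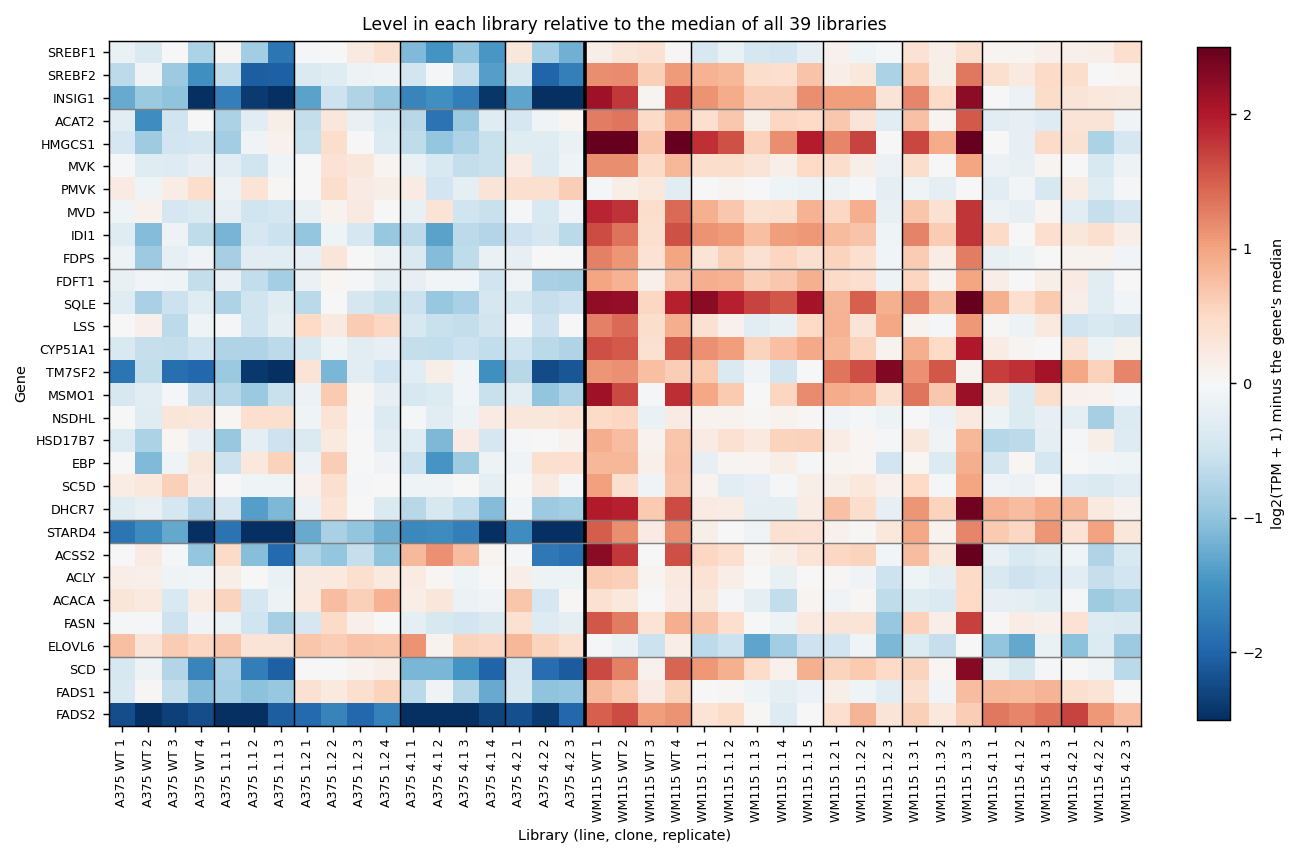
Level of the 30 genes (rows, by role) in each of 39 libraries (columns, by line and clone), as log2(TPM + 1) minus the gene's median over all libraries. A375 is left of the thick line. Libraries 2 and 3 of A375 clones 1.1 and 4.2 are low in SREBF2, INSIG1, STARD4 and SCD. Library 4 of A375 WT and of clone 4.1 is also low in SREBF2 and INSIG1. WM115 WT libraries 1, 2 and 4 and library 3 of clone 1.3 are high in most rows.

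How far the enzymes moved together within groups was read over the libraries of each line. Each value was log2(TPM + 1) minus the mean of its group, so differences between WT and clones were taken out. Over the 21 WM115 libraries the median Pearson's r of the 153 pairs of mevalonate and sterol enzymes was 0.76. Over the 18 A375 libraries it was 0.19. These deviations were averaged over the 18 enzymes, and the 2 libraries of each line farthest from that line's median were left out. In WM115 these were library 3 of clone 1.3 and WT library 3, and in A375 library 2 of clones 1.2 and 4.1. The median r was then 0.45 in WM115 and 0.14 in A375. HMGCS1, INSIG1 and ACSS2 each followed the mean of the sterol enzymes at r = 0.97 in WM115, and SREBF2 at 0.88. SREBF1 (0.07), PMVK (-0.01) and TM7SF2 (-0.36) did not. Without the same 2 libraries HMGCS1, INSIG1, ACSS2 and SREBF2 were at 0.92, 0.91, 0.91 and 0.90, SREBF1 at 0.37, PMVK at 0.35 and TM7SF2 at -0.14, while LSS went from 0.73 to 0.29 and EBP from 0.76 to 0.25. TM7SF2 had the lowest r in A375 as well, at -0.60, and -0.51 without that line's 2 libraries. These correlations describe libraries that share clones and a scale that sums to a constant, and the difference between the lines was not tested.

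PMVK, phosphomevalonate kinase, passed in no comparison. It ranged from 19.9 to 43.7 TPM over all 39 libraries, the lowest and highest both in A375, while its neighbours in the pathway MVK and MVD fell in WM115 clones. The other 29 genes each passed in at least 1 comparison.

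SREBF1 is known to be transcribed from alternative first exons. Per the GENCODE 29 annotation, its transcripts in the table were split by first exon. The 2 transcripts that start at the far exon (chr17:17836727-17837002, minus strand) made up 47.5 to 59.2% of the gene's TPM as group means. The 3 that start at the near exon (chr17:17823518-17823618) made up 4.81 to 9.46%. In A375 clone 4.1 the far form averaged 30.9 ± 6.31 TPM (SD, n = 4) against 63.1 ± 15.4 TPM in WT (n = 4), and the near form 3.61 ± 0.989 against 5.61 ± 2.55 TPM. In WM115 clone 1.1 they averaged 62.3 ± 11.2 TPM (n = 5) against 78.9 ± 11.02 TPM (n = 4), and 8.40 ± 2.75 against 9.96 ± 1.57 TPM. Most of the remainder, from 18 other transcripts, cannot be placed at either start.

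The regions were compared over clones. With each clone's mean as 1 value, R1 clones (4) against R4 clones (4) of both lines gave none of the 30 by limma, and 0% of 18099 genes. At an unadjusted p under 0.05 there were 3 (HMGCS1 at 0.79, SCD at 0.79 and LSS at 0.53, all higher in R1 clones) and 754 over all genes. The test of whether that difference depended on the line also called none, with 2 of the 30 (HMGCS1 and FADS2) and 532 of all genes at an unadjusted p under 0.05.

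Other genes of the pathway were read from lists of 50 genes. Of 7 further SREBP targets, 5 were higher in WM115 WT than in A375 WT and none lower, where 25.8% of all genes were higher, led by the phosphatidate phosphatase LPIN1 (1.73), PCYT2 of phosphatidylethanolamine synthesis (1.59) and ERG28 (1.48). In WM115 clones 1.1, 1.2, 4.1 and 4.2, 3, 2, 3 and 3 of the 7 were lower and none higher, where 15.7%, 10.8%, 15.6% and 13.6% of all genes were lower. They were 4, 3, 5 and 4 without WT library 3, where 16.1%, 11%, 16% and 15.3% of all genes were lower. LPIN1 differed by -1.29, -1.32 and -1.33 in clones 1.1, 4.1 and 4.2, and PCYT2 by -0.64, -0.91 and -1.11. TMEM97 (-0.78) and MID1IP1 (-0.48) were the 2 in clone 1.2. In the A375 clones none of the 7 passed against WT.

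The other lists held genes called in both directions, and their counts stand against the same shares of all genes, with 6.3%, 11.8%, 8.59% and 6.71% higher in WM115 clones 1.1, 1.2, 4.1 and 4.2. Of 7 genes that sense sterols or process the SREBPs, 1 was higher in each of clones 1.1 and 1.2, the ubiquitin ligase RNF139 (0.60 and 0.57). In clone 1.1 the escort SCAP was lower (-0.41), in clone 4.1 SCAP (-0.66) and the protease MBTPS1 (-0.48), and in clone 4.2 MBTPS1 (-0.47).

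Of 6 tested genes of the oxysterol receptors LXR and their targets, 2, 2, 1 and 0 were higher in clones 1.1, 1.2, 4.1 and 4.2, and 1, 0, 1 and 1 lower. The cholesterol exporter ABCA1 rose in clones 1.1 (1.21), 1.2 (1.68) and 4.1 (1.05). The lower genes were NR1H2, an LXR itself, in clone 1.1 (-0.32), SMPDL3A in clone 4.1 (-0.64) and LPCAT3 in clone 4.2 (-0.53). Of 13 genes of fatty acid supply, 0, 3, 1 and 0 were higher and 5, 2, 2 and 3 lower. ACSL1, which activates long fatty acids, fell in clones 1.1 (-1.22), 4.1 (-2.19) and 4.2 (-2.52), while ACSL4 rose in clone 1.2 (1.44). FADS3 fell in clone 1.1 (-1.27) and rose in clone 4.1 (1.65).

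Of 10 genes of isoprenoid use, 1 was higher in each of the 4 clones and 1, 6, 4 and 3 were lower. The gene that rose was FNTA (0.90, 0.59, 0.61 and 0.50), a farnesyltransferase subunit. The other subunit, FNTB, fell in clones 1.2 (-0.93), 4.1 (-1.17) and 4.2 (-0.84), as did PDSS1, of ubiquinone synthesis (-0.73, -0.64 and -0.61). Of 6 genes of sterol ester handling, 1, 0, 1 and 0 were higher and 1 was lower in each of the 4 clones. In clone 1.3, SOAT1 was the gene of all these lists that passed (-0.69). In A375 clone 1.2, FADS3 (0.92), ACACB (0.82) and ELOVL5 (0.32) rose, and no gene of these lists passed in the other A375 clones against WT.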

How the data were processed

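Per the labels' protocols, total RNA of cultured cells was enriched for poly-A RNA on oligo-dT, copied from random hexamers and read by Illumina sequencing. The authors deposited gene and transcript values in TPM; DRAGEN and GRCh38 are named in the submitters' processing notes, and how counting was set, the annotation release and the use of strand are not given in the sources used here. Repeated lines of the gene table (200) were used once, and 6 columns in each table that match no sample of the series were not used.

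The 30 genes, the lists and the tests were chosen with earlier results of these data known. Genes that reached 1 TPM in 3 or more libraries of a line entered limma 3.58.1 (R 4.3.3) on log2(TPM + 1), with a trend of variance on level, 1 coefficient per group and a two-sided test (16692 genes in A375, 16997 in WM115, 18662 for the WT libraries of both lines). A gene passed at a Benjamini-Hochberg adjusted p under 0.05 over all genes tested, and fold changes on this scale understate those of low genes. Since TPM carry no read counts, no counting interval was computed. Regions were compared on clone means (18099 genes), with line as a term.

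All 30 genes are described. Against WT, up to 8 with the largest difference among those that passed are given in full, with at least 1 per role; other pathway genes are named, up to 3 per list, by size among those that passed. A gene of the sterol-sensing list is not reported here. SREBF1 transcripts were grouped by first exon with GENCODE 29. Labels share replicate numbers between groups. Same-numbered libraries deviated together in every pair (r over 0.1) for A375 clone 4.1 and WT alone, where all 4 matched best with their own number, so that blocked value is given in the text.

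Alternatives were a pseudocount of 0.1, a mean TPM of 5 or no filter, median-of-ratios or quantile scaling, a minimum log2 difference of 1, fits of the 2 groups alone or with the replicate block, the mitochondrial share (split at 2.5% in A375 and 7.5% in WM115) as a term, and each library left out in turn. Fits within each mitochondrial set and without library 3 of WM115 clone 1.2, and counts of other lists and of groups that do not overlap without WM115 WT library 3, were chosen after seeing the data.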

Additional observations from a re-analysis of the deposited data

Results flagged for a closer look

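Single libraries far from the others of their group were sought by Dixon's test at the 95% level in groups of 4 or 5 libraries. Of 160 tests, made per gene or enzyme sum and per group, 10 gave a flag, where chance gives about 8 (5%). These tests share libraries and are not independent. In A375 WT, library 2 had HMGCS1 at 12.0 TPM (others 16.2 to 16.9), TM7SF2 at 18.1 TPM (others 6.49 to 7.28) and a sum of the sterol enzymes of 519 TPM (others 644 to 666), and library 3 had FASN at 186 TPM (others 249 to 259). In A375 clone 1.2, EBP was at 115 TPM in library 2 (others 67.8 to 74.8) and ACLY at 184 TPM in library 3 (others 163 to 166). In A375 clone 4.1, IDI1 was at 12.7 TPM in library 2 (others 19.7 to 20.96) and STARD4 at 4.67 TPM in library 4 (others 12.4 to 13.8). In WM115, IDI1 was at 57.0 TPM in library 3 of clone 1.1 (others 69.7 to 74.2) and CYP51A1 at 51.8 TPM in WT library 3 (others 117 to 124). Groups of 3 libraries were not tested in this way, so library 3 of WM115 clone 1.3 could not be picked out by it.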

How the results depend on the processing

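For members that passed without a replicate block, no difference changed sign under any alternative run. Other pathway genes, markers, blocked values and members that did not pass were not put through these alternatives, except that lists were counted again without WM115 WT library 3. Of the values for single genes, 1358 kept their side of the threshold and 492 lost it, and of the counts of genes passing, 205 stayed within 1.5 times and 76 did not. The cause was not tested for any of these.

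Scaling and thresholds moved these counts. The counts under alternatives in this section have no share of all genes beside them, and that share can move with the setting. For A375 clone 4.1 it was 0.515% higher and 0.797% lower without the replicate block, and 7.94% and 6.37% with it. A375 clone 1.2 fell from 2 genes to 1 (LSS) with median-of-ratios and with quantile scaling, and to 0 with a minimum log2 difference of 1. That minimum gave 6 for A375 clone 1.1 against 1.2, and for WM115 2 in clone 1.1, 3 in clone 1.2, 10 in clone 4.1, 12 in clone 4.2 and 1 for clone 1.1 against 1.2. With no filter, A375 clone 4.1 against 4.2 gave 0, WM115 clone 1.2 gave 5 and clone 4.2 gave 11. Fits of the 2 groups alone gave 1 (FADS1) for A375 clone 1.2, 6 for A375 clone 1.1 against 1.2, 0 for A375 clone 4.1 against 4.2, 2 for WM115 clone 1.2 and 3 for WM115 clone 4.1 against 4.2.

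With the replicate block, counts were 0 for A375 clone 1.2, 8 for A375 clone 4.1, 3 for A375 clone 1.1 against 1.2 and 0 for 4.1 against 4.2. In WM115 the replicate block gave 20 for clone 1.1, 0 for clone 1.2, 6 for clone 4.1, 0 for clone 1.1 against 1.2 and 2 for 4.1 against 4.2. Apart from A375 clone 4.1, these samples share only a number.

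With the mitochondrial set as a term, WM115 counts were 6 for clone 1.1, 1 (FADS2) for clone 1.3 and 2 for clone 1.1 against 1.2. Within the set of high mitochondrial share, A375 counts were 2 for clone 1.1, 6 for clone 1.2, 4 for clone 4.2 and 5 for clone 4.1 against 4.2. There clone 1.2 has 2 libraries and each other A375 group 1, so all spread comes from clone 1.2 and these counts compare single libraries. In that set WM115 counts were 2 for clone 1.1, 2 for clone 1.2, 0 for clone 4.1 (1 clone library, assumed to vary like the others), 7 for clone 4.2 and 1 for clone 1.1 against 1.2. Within the low set, A375 clone 1.2, clone 1.1 against 1.2 and clone 4.1 against 4.2 gave 0. The low set holds no WM115 WT library, so those fits could not be made.

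Leaving out 1 library at a time, counts ranged from 0 to 1 for A375 clone 1.1, 0 to 2 for clone 1.2, 2 to 13 for clone 1.1 against 1.2 and 0 to 1 for clone 4.1 against 4.2. In WM115 they ranged from 5 to 19 for clone 1.1, 0 to 21 for clone 1.2, 0 to 3 for clone 1.3, 9 to 22 for clone 4.1, 9 to 24 for clone 4.2, and 1 to 4 for clone 1.1 against 1.2. WT against WT gave 24 to 25. The lowest counts of clones 4.1 and 4.2, 9 each, came without library 2 of the clone. Library 3 of clone 1.2, left out of the whole fit, gave 12 for clone 1.1, 20 for clone 4.1 and 23 for clone 4.2. TPM carry no depth, so the precision of low values is unknown.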
